A study of Mus musculus with 32 samples.

Results

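Genes of the cell division cycle and of DNA replication were followed across prefrontal cortex RNA of selectively bred mice after chronic ethanol exposure. The members were every clone spot on the cDNA array whose title names Mcm4, Pcna, Timeless, Ccnd1, Cdk2, Wee1, Ccng2, Bub1b or Mki67. That rule gave 10 spots for 9 genes, Cdk2 having 2, among 4696 clone spots. The rule itself reads gene names and no measured value, but the genes were proposed with earlier results of these data known.

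The mice belonged to the WSP line (Withdrawal Seizure-Prone) or the WSR line (Withdrawal Seizure-Resistant), bred from the heterogeneous HS/Ibg stock for strong or weak ethanol withdrawal. Each line exists as 2 independently derived populations, selection replicates 1 and 2. Adult drug-naive females and males of either line were kept for 72 h in chambers with ethanol vapour (EtOH) or with air and were sampled 8 h later. EtOH mice were injected with ethanol beforehand, at 1.5 g/kg, or a higher dose in WSP selection replicate 2. All mice, air controls included, were given the alcohol dehydrogenase inhibitor pyrazole at 68.1 mg/kg, so no group was free of that drug. The 8 groups of sex, line and treatment held 4 arrays each, and each array carried RNA pooled from 2 mice. Arrays are named by selection replicate and pool, and values are given in the order 1-1, 1-2, 2-1 and 2-2.

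Cells that divide license replication origins in G1 by loading the MCM helicase, copy DNA in S phase with the PCNA sliding clamp, and separate chromosomes in mitosis under the spindle checkpoint. Cyclins switch on cyclin-dependent kinases to drive these steps, and Wee1 and other inhibitors hold the kinases back. Most cells of the adult cortex are neurons that have left the cycle, while glial precursors, microglia and vessel cells can still divide, and several of these proteins also act in neurons outside division. In tissue RNA, fewer cells of a type and less RNA per cell cannot be told apart.

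The spots were dim. Normalised log2 intensity had a floor of 5.65 set by the background correction, so log2 differences of dim spots are understated. The 32-array means of the members ran from 5.81 for the second Cdk2 spot to 7.21 for Wee1. Wee1 and Bub1b were above their array's background on all 32 arrays, and the first Cdk2 spot and Ccng2 on 30. Pcna was above it on 18 arrays, Mcm4 on 17, Ccnd1 on 14, Mki67 on 12, Timeless on 9 and the second Cdk2 spot on 5. Of all clone spots, 1236 were above background on every array. Of the 20 spots for cell type markers, the neuronal gene Ina, the astrocyte gene Glul and the myelin-lineage gene Enpp2 were above background on all 32 arrays, while no spot was titled with a listed oligodendrocyte precursor gene. None of the 20 was below background on every array.

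**Figure D1:**
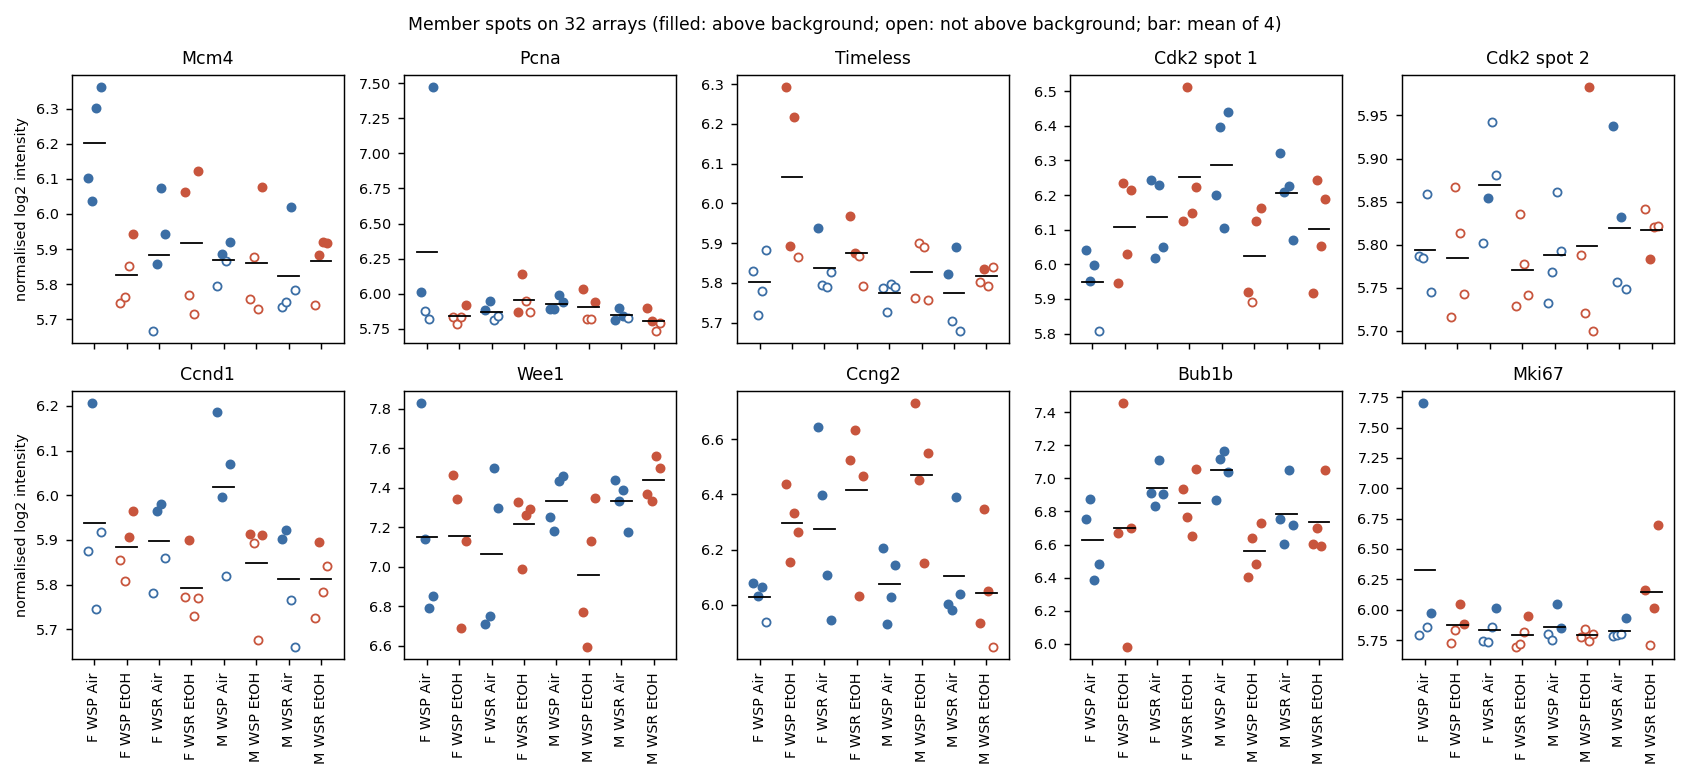
Normalised log2 intensity (vertical axis, a separate range in each panel) of the 10 member spots on 32 arrays, with 4 arrays and their mean in each of 8 groups (F female, M male). Filled points are above the array's background and open points are not. Mcm4 is above background on all 4 arrays of the female WSP air group, and single arrays stand far above the rest for Pcna at 7.47 and Mki67 at 7.70.

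Over 10 comparisons and 10 spots, none of the 100 member differences passed an adjusted p of 0.05 (limma with Benjamini-Hochberg adjustment over 4696 spots, smallest 0.187). The unadjusted p was under 0.05 for 13 of the 100, against 5.89% of the differences of all clone spots over the same comparisons. These comparisons share groups, so the 13 are not independent. In the 4 ethanol comparisons 0 of 4696 clone spots passed (0%). At the unadjusted threshold, 3 of 10 member spots fell under 0.05 in female WSP, against 11.5% of all clone spots, and 3 of 10 in male WSP, against 6.15%. No member did so in female WSR, where 3.05% of all did, or in male WSR, where 3.41% did. The EtOH and air groups did not overlap for 2 of 10 spots in female WSP (5.47% of all spots), for 1 in male WSP (2.77%), and for none in female WSR (2.49%) or male WSR (3.56%). Direction varied between strata: 5 spots had lower and 5 higher means in female WSP EtOH, with a median difference of -0.0018 against 0.02 over all spots. In male WSP 7 were lower and 3 higher, and the median was -0.05 against 0.0028. In female WSR 4 were lower and 6 higher, and in male WSR 6 were lower and 4 higher. Averaged over the 4 strata 8 were lower and 2 higher, with a median of -0.04 against 0.0027 over all spots, of which 48.3% were lower.

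**Figure D2:**
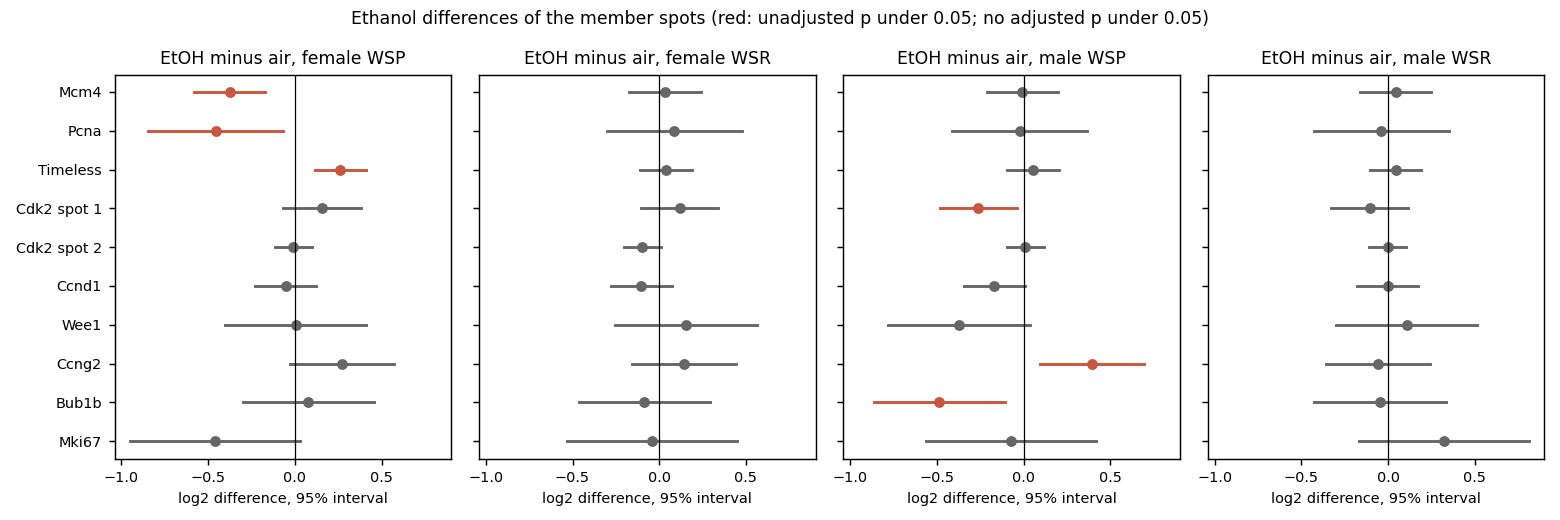
EtOH minus air log2 differences (horizontal axis) of the 10 member spots in female WSP, female WSR, male WSP and male WSR mice, with 95% intervals from the fit over all arrays. Red marks an unadjusted p under 0.05, which occurs in both WSP panels and in neither WSR panel, and no adjusted p was under 0.05. The difference between panels was tested separately, as described in the text.

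Replication genes carried the differences with the smallest p values, in female WSP mice. Mcm4 encodes a subunit of the MCM helicase that unwinds DNA at replication forks. Its log2 values in female WSP air were 6.10, 6.04, 6.30 and 6.36, and in female WSP EtOH 5.75, 5.76, 5.85 and 5.94. All 4 air arrays lay above all 4 EtOH arrays, and the spot was above background on 4 air arrays and 1 EtOH array. The mean was 6.20 ± 0.16 in air and 5.83 ± 0.09 in EtOH (SD, n = 4 each), a difference of -0.38 log2 units (SE 0.10, 95% interval -0.58 to -0.17). It ranked 19th of the 4696 spots by p but did not pass (limma, adjusted p = 0.187). The call depended on scaling: with median scaling the difference was -0.48 (adjusted p = 0.0488 in limma) and with cyclic loess -0.50 (adjusted p = 0.0312), and both passed.

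Within selection replicate 1 the Mcm4 difference was -0.32 and within selection replicate 2 it was -0.43. The other groups showed no such separation. Female WSR values were 5.67, 5.86, 6.07 and 5.94 in air and 6.06, 5.77, 5.71 and 6.12 in EtOH. Male WSP values were 5.80, 5.89, 5.87 and 5.92 in air and 5.76, 5.88, 5.73 and 6.08 in EtOH. Male WSR values were 5.73, 5.75, 6.02 and 5.78 in air and 5.74, 5.88, 5.92 and 5.92 in EtOH. The groups overlapped in these 3 strata, with differences of 0.03, -0.01 and 0.04. The ethanol difference in WSP minus that in WSR, averaged over the sexes, was -0.23 (SE 0.10) and did not pass (limma, adjusted p = 0.9985), so the lines were not shown to differ. It was the 1 of 10 member spots with an unadjusted p under 0.05 there, against 2.09% of all spots. WSP EtOH mice of selection replicate 2 had the higher ethanol dose. For every gene, this contrast and the line comparison under EtOH therefore cannot separate line from dose. Within WSP, ethanol differences of the selection replicates cannot separate population from dose.

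Female WSP air stood highest in Mcm4, 0.28 above female WSR EtOH, and this was the single step among 70 between neighbouring groups, over all members, that exceeded the larger of both groups' SDs. In air, WSP exceeded WSR by 0.18 over both sexes (SE 0.07, n = 8 arrays each, from 2 populations per line) without passing (limma, adjusted p = 0.802). The SE takes arrays as independent and does not measure the spread between populations. Here 1 of 10 member spots had an unadjusted p under 0.05 against 5.34% of all spots. Females exceeded males by 0.10 (SE 0.05, n = 16 each, limma, adjusted p = 0.566). In the female minus male comparison 42 of 4696 spots passed (0.894%), none of them a member, and 2 of 10 members against 8.75% of all had an unadjusted p under 0.05.

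Spots beside Mcm4 on the array varied with it, which was common on these arrays. Over all 4696 clone spots, the median r of a spot with the median deviation of spots up to 3 positions away was 0.64. It was 0.71 for Mcm4, 0.90 for Pcna and between 0.30 and 0.61 for the other member spots. The clones in the previous and next columns, for solute carrier family 25 member 5 and farnesyltransferase alpha, correlated with Mcm4 at Pearson r = 0.81 and 0.72 over the 32 arrays, as a description of spots that share arrays and neighbouring positions. The former was the gene-titled spot most like Mcm4 on the whole array. In female WSP the 3 adjacent clone spots differed between EtOH and air by -0.27 to -0.25, all in the direction of Mcm4. With each spot centred on the median deviation of the spots up to 3 positions away, the Mcm4 difference was -0.24 (SE 0.08, limma, adjusted p = 0.371). The same centring gave -0.10 for its ethanol by line contrast, 0.11 for the line difference in air and 0.0048 for the sex difference. The part of the surrounding signal in the Mcm4 difference was not tested further.

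Pcna encodes the sliding clamp that holds DNA polymerases on their template, a standard marker of S phase. Its female WSP air values were 6.01, 5.88, 5.82 and 7.47, and its female WSP EtOH values 5.84, 5.78, 5.83 and 5.92. The groups overlapped, and array 2-2 of the air group stood apart. The difference was -0.45 (SE 0.19, limma, adjusted p = 0.369) and was -0.06 without that array. On that array 12 of the 35 clone spots up to 3 positions away were more than 1 log2 unit above their own mean, and the adjacent spots in the previous row, the previous column and the next column correlated with Pcna at r = 0.88, 0.85 and 0.92. The fourth adjacent spot, for carbonyl reductase in the next row, did not (r = -0.03) and differed by 0.17 in female WSP, against -0.46 to -0.21 for the other three. With local centring the Pcna difference was -0.22 (limma, adjusted p = 0.608). The most similar gene-titled spot, for the synaptic scaffold SAP102 at r = 0.95 over 32 arrays, lies in the same grid. On the other 31 arrays Pcna was low: in the remaining groups its means ran from 5.81 ± 0.07 in male WSR EtOH to 5.96 ± 0.13 in female WSR EtOH (SD, n = 4 each).

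Timeless encodes a fork protection factor that keeps the helicase coupled to the polymerases, and is the mammalian relative of a fly clock gene. In female WSP it took the opposite direction to Mcm4. Air values were 5.83, 5.72, 5.78 and 5.88, none above background, and EtOH values were 6.29, 5.89, 6.22 and 5.86, of which the lowest was not above background. Arrays 1-1 and 2-1 of the EtOH group were high, and the groups overlapped by the lowest EtOH array. The difference was 0.26 (SE 0.07, n = 4 each, limma, adjusted p = 0.1875), ranked 24th of 4696. Because the air group was not above background, the level is a bound: EtOH was at least 1.11-fold higher than the lowest signal above background on the air arrays, on the normalised scale. That bound compares measured means and covers no spread between arrays.

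Timeless differed by 0.04 in female WSR, 0.05 in male WSP and 0.04 in male WSR, and its male WSP arrays were above background in neither treatment. Averaged over the 4 strata the ethanol difference was 0.10 (SE 0.04, n = 16 each, limma, adjusted p = 0.657), and the sex difference was also 0.10 (SE 0.04, adjusted p = 0.323), higher in females. In the average ethanol comparison, Timeless and Ccng2 were the 2 of 10 member spots with an unadjusted p under 0.05, against 7.5% of all spots. All 4 adjacent spots of Timeless were higher in female WSP EtOH, by 0.05 to 0.26. Local centring gave 0.17 (SE 0.06, limma, adjusted p = 0.382).

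Genes that drive entry into S phase gave no call. Ccnd1 encodes cyclin D1, which activates CDK4 and CDK6 in G1. Its group means ran from 6.02 ± 0.15 in male WSP air to 5.79 ± 0.07 in female WSR EtOH (SD, n = 4 each), and no step between neighbouring groups exceeded the spread. Male WSP values were 6.19, 5.995, 5.82 and 6.07 in air and 5.91, 5.89, 5.68 and 5.91 in EtOH. These groups overlapped, with a difference of -0.17 (SE 0.09, limma, adjusted p = 0.7504).

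Cdk2 encodes the kinase that cyclins E and A activate for S phase. Its 2 clones correlated with each other at only r = 0.17 over the 32 arrays, and the second was above background on 5 arrays, with group means between 5.77 and 5.87. The first spot in male WSP read 6.20, 6.40, 6.10 and 6.44 in air and 5.92, 5.89, 6.12 and 6.16 in EtOH. Only air array 2-1 lay within the EtOH range. The difference was -0.26 (SE 0.11, n = 4 each, limma, adjusted p = 0.7504). It was -0.39 and -0.13 within selection replicates 1 and 2, -0.14 with local centring and -0.17 with array sets, arrays alike in their genomic DNA spots, as a block. The second spot gave 0.0095 in the same comparison, with male WSP air not above background on any array, so the clones disagree. In females the first spot had the other sign, at 0.16 in WSP and 0.12 in WSR. Averaged over lines, the ethanol difference in females minus that in males was 0.32 (SE 0.11), with the smallest unadjusted p of any member in that comparison, and it did not pass (limma, adjusted p = 0.752). It was the 1 of 10 member spots with an unadjusted p under 0.05 there, against 6.15% of all spots, and the contrast was 0.43 and 0.21 within selection replicates 1 and 2. The second Cdk2 spot gave -0.06 in that contrast, and -0.0094 in female WSP and -0.10 in female WSR. Over 32 arrays the gene-titled spot most like the first Cdk2 spot was cytosolic phosphoenolpyruvate carboxykinase 1 (r = 0.58).

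Inhibitors of the cycle gave differences of both signs in male WSP. Wee1 encodes the kinase that phosphorylates CDK1 and delays mitosis, and was the brightest member. Its group means ran from 7.44 ± 0.11 in male WSR EtOH to 6.96 ± 0.34 in male WSP EtOH (SD, n = 4 each). Male WSP values were 7.25, 7.18, 7.43 and 7.46 in air and 6.77, 6.59, 7.13 and 7.35 in EtOH. The groups overlapped through EtOH array 2-2, and the difference of -0.37 (SE 0.20) did not pass (limma, adjusted p = 0.760). It was -0.20 with cyclic loess, and -0.54 and -0.21 within selection replicates 1 and 2. In male WSR, Wee1 read 7.44, 7.33, 7.39 and 7.17 in air and 7.37, 7.33, 7.56 and 7.50 in EtOH, with overlapping groups and a difference of 0.11. The female WSP air arrays were the most spread, at 7.83, 7.14, 6.79 and 6.85. The gene-titled spot most like Wee1 was bisphosphate 3'-nucleotidase 1 (r = 0.72 over 32 arrays).

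Ccng2 encodes cyclin G2, an unconventional cyclin that is high in cells leaving the cycle and holds back proliferation. In male WSP it read 6.21, 5.93, 6.03 and 6.14 in air and 6.73, 6.45, 6.15 and 6.55 in EtOH. Only EtOH array 2-1 lay within the air range, and the mean was 6.08 ± 0.12 in air and 6.47 ± 0.24 in EtOH (SD, n = 4 each). The difference was 0.39 (SE 0.15, 95% interval 0.09 to 0.69, limma, adjusted p = 0.7504). In female WSP it read 6.08, 6.03, 6.06 and 5.94 in air and 6.44, 6.16, 6.33 and 6.26 in EtOH, and every EtOH array was above every air array. That difference was 0.27 (SE 0.15, limma, adjusted p = 0.485), and 0.18 with local centring.

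In female WSR, Ccng2 read 6.64, 6.40, 6.11 and 5.94 in air and 6.52, 6.63, 6.03 and 6.47 in EtOH. In male WSR it read 6.004, 5.98, 6.39 and 6.04 in air and 5.94, 6.35, 6.05 and 5.85 in EtOH. Both WSR pairs overlapped, with differences of 0.14 and -0.06. The average over the 4 strata was 0.19 (SE 0.07, n = 16 each, limma, adjusted p = 0.657), 0.07 with local centring (adjusted p = 0.850) and 0.45 with the authors' deposited table. The WSP minus WSR contrast of ethanol differences was 0.29 (SE 0.15, limma, adjusted p = 0.9985), and 0 of 4696 spots passed there (0%). The 4 spots adjacent to Ccng2 were also higher in male WSP EtOH, by 0.15 to 0.23, and with local centring the Ccng2 difference was 0.27 (SE 0.13, limma, adjusted p = 0.678). The gene-titled spot most like Ccng2, at r = 0.78 over 32 arrays, was CDC like kinase 4.

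**Figure D3:**
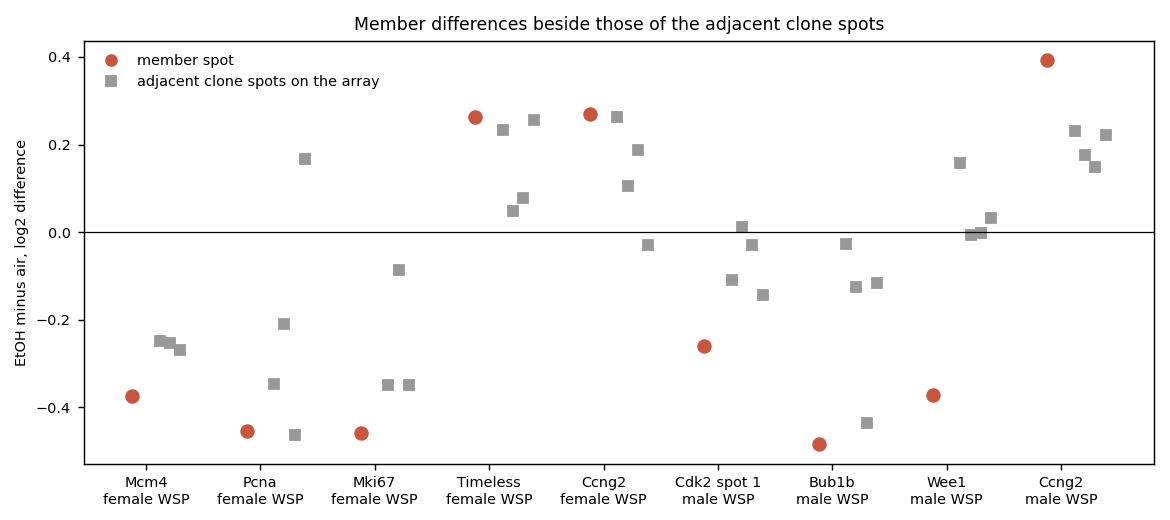
EtOH minus air log2 differences (vertical axis) of 9 member spots, as red circles, beside those of the adjacent clone spots on the array, as grey squares, with the sex and line under each. The 3 neighbours of Mcm4 lie between -0.27 and -0.25, and the 4 neighbours of Ccng2 in male WSP between 0.15 and 0.23, while those of Wee1 lie between -0.0073 and 0.16.

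The mitotic genes differed in brightness, with 32-array means of 6.78 for Bub1b and 5.93 for Mki67. Bub1b encodes BubR1, a kinase-like subunit of the spindle checkpoint complex that restrains anaphase. In male WSP it read 6.87, 7.12, 7.16 and 7.04 in air and 6.40, 6.64, 6.48 and 6.73 in EtOH. Every air array lay above every EtOH array, and all 8 were above background. The mean was 7.05 ± 0.13 in air and 6.56 ± 0.15 in EtOH (SD, n = 4 each), a difference of -0.49 (SE 0.19, 95% interval -0.86 to -0.11). It ranked 74th of 4696 and did not pass (limma, adjusted p = 0.7504).

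The Bub1b difference was -0.47 within selection replicate 1 and -0.50 within selection replicate 2. With cyclic loess it was -0.26. In male WSR the values were 6.76, 6.61, 7.05 and 6.72 in air and 6.60, 6.70, 6.59 and 7.05 in EtOH, which overlapped. In female WSP EtOH they spread from 5.98 to 7.46. The male WSP groups were the highest and the lowest of the 8, and no step between neighbours exceeded the spread. The clones on either side of Bub1b were bright, at mean log2 values of 11.1 and 10.3, and differed in male WSP by -0.13 and -0.44, and with local centring the Bub1b difference was -0.43 (SE 0.17, limma, adjusted p = 0.528).

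Bub1b and the first Cdk2 spot, both lower in male WSP EtOH, were the most correlated member pair, at r = 0.49 over the 32 arrays, against a median of -0.02 over the 45 pairs. With group means removed their r was 0.31, below the 0.49 of Wee1 with Bub1b, a pair at 0.46 over the 32 arrays. The second Cdk2 spot correlated with Bub1b at 0.09 over the 32 arrays. All these spots share arrays and scaling, and the values are descriptions. The gene-titled spot most like Bub1b was T-cell acute lymphocytic leukemia 1 (r = 0.55). Promoter windows of 250 bases before to 50 after the RefSeq gene start (build GRCm38.p6) were found for 6 of the 9 genes, and not for Mcm4, Wee1 and Ccnd1. They are shown for Bub1b and Cdk2, and for Ccng2, whose male WSP difference had the opposite sign to Bub1b and the first Cdk2 spot. None of these differences passed, and the choice of windows came from these data. Capitals mark matches, on either strand and with no overlaps, to the E2F letters TTTNNCGC, the cell cycle homology region TTTGAA (CHR) and CCAAT.
Bub1b promoter, chr2:118597961-118598260, plus strand: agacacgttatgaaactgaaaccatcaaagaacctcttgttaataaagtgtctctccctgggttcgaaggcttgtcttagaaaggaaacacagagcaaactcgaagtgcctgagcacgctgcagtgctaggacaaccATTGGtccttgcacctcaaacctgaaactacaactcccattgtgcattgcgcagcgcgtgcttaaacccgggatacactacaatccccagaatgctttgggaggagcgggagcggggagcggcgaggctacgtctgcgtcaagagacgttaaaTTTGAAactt
Cdk2 promoter, chr10:128705002-128705301, minus strand: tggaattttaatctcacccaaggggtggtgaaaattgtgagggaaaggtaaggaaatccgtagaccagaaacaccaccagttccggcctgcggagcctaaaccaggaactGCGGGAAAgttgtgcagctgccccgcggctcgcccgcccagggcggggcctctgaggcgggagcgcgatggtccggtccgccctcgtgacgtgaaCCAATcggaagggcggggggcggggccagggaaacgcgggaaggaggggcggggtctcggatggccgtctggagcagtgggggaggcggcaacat
Ccng2 promoter, chr5:93267323-93267622, plus strand: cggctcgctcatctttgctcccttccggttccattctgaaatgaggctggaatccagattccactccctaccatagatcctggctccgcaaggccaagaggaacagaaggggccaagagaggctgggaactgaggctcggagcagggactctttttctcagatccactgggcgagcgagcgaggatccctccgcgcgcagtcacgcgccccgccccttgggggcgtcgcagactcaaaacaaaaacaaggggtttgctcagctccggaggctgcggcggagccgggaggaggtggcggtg
The Bub1b window held CCAAT on the minus strand from position -113 and TTTGAA from position 41, counted from the gene start. The Cdk2 window held the E2F letters on the minus strand from position -140 and CCAAT from position -45. The Ccng2 window held none of the 3 letter strings. Neither did the Timeless window, while the Pcna and Mki67 windows held matches. A link between the letters and the direction of differences was not tested. Of all 32851 promoter windows, 5.17% held the E2F letters, 17.9% TTTGAA and 37.4% CCAAT. Among the 6 member windows, 1 held the E2F letters, 2 TTTGAA and 4 CCAAT. These are matches of letters and were not tested for binding.

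Mki67 encodes the proliferation marker Ki-67, which coats mitotic chromosomes. Its female WSP air values were 5.79, 7.70, 5.85 and 5.97, and its EtOH values 5.72, 5.83, 6.05 and 5.88. Array 1-2 of the air group carried the difference of -0.46 (SE 0.24, limma, adjusted p = 0.4615), which was -0.0020 without it. On that array 5 of the 21 clone spots up to 3 positions away were more than 1 log2 unit above their own mean. In male WSR EtOH the values were 6.16, 5.71, 6.02 and 6.70 against 5.78, 5.79, 5.80 and 5.93 in air, overlapping groups with a difference of 0.32 (SE 0.24, limma, adjusted p = 1). It was 0.14 without EtOH array 2-2 and 0.20 with local centring. The female WSP difference was -0.97 within selection replicate 1. In male WSP EtOH no array was above background.

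**Figure D4:**
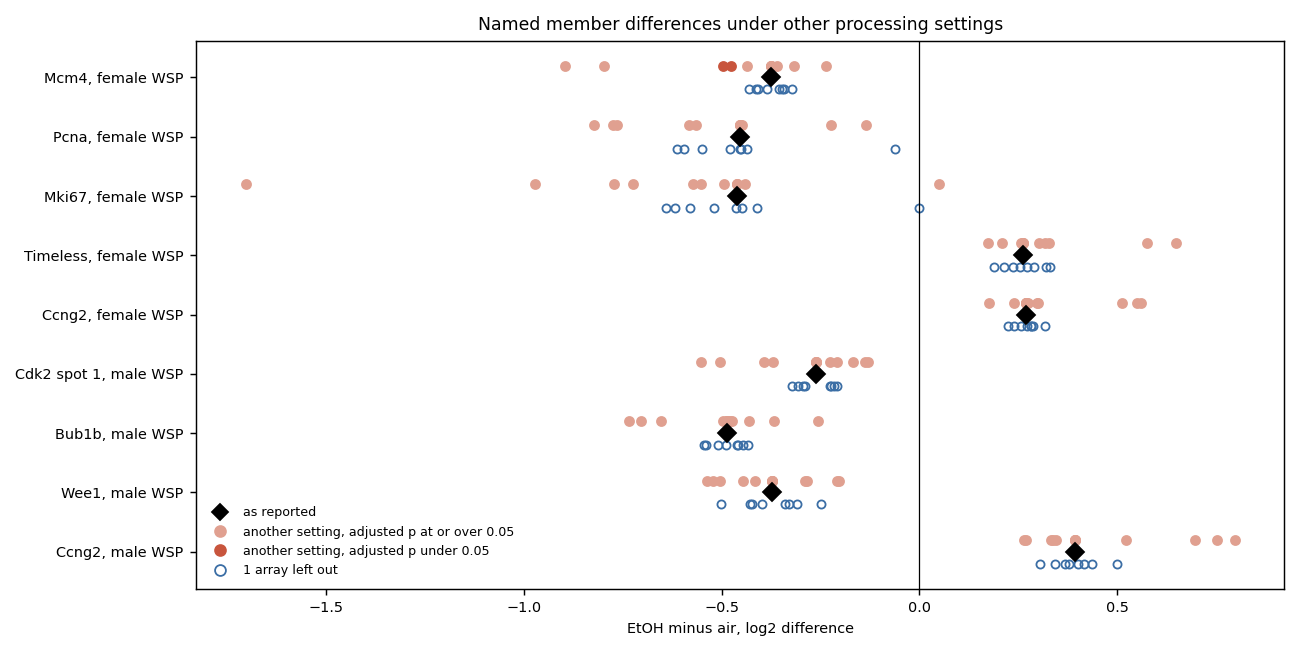
EtOH minus air log2 differences (horizontal axis) of named members as reported (black), under other processing settings (red, darker where the adjusted p was under 0.05) and with 1 array left out (blue). Mcm4 passed under 2 settings, at -0.48 and -0.50, and Pcna and Mki67 approached 0 without a single air array, at -0.06 and -0.0020.

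Other measured genes of the pathway were 23 spots from lists of replication, cyclin and kinase, inhibitor and checkpoint, and mitosis genes. Orc3, an origin recognition complex subunit that precedes MCM loading, was the only call: it was 0.28 lower in females than in males (SE 0.06, n = 16 each, limma, adjusted p = 0.0220). The call was lost with median scaling, at -0.16 (limma, adjusted p = 0.701), without male WSP air array 2-1, at -0.25 (adjusted p = 0.0506), and in each selection replicate alone, at -0.19 and -0.36 (adjusted p = 0.768 and 0.139). In female WSP Orc3 differed by -0.31 between EtOH and air (SE 0.13, limma, adjusted p = 0.344). Its values there were 8.25, 8.17, 8.28 and 8.43 in air and 8.16, 8.22, 7.76 and 7.74 in EtOH, the lowest being those of selection replicate 2. None of the others passed in any comparison. Over the 10 comparisons 13 of 230 differences of these spots had an unadjusted p under 0.05 (5.65%), against 5.89% over all clone spots, and the genes below are named for such a p.

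Atr, the kinase that signals stalled forks, differed by 0.32 in female WSP (SE 0.14, limma, adjusted p = 0.385), with air values of 7.36, 7.46, 7.23 and 7.36 below EtOH values of 7.64, 7.90, 7.52 and 7.65. It was lower in WSP than in WSR by 0.36 in air (limma, adjusted p = 0.339) and by 0.29 in EtOH (adjusted p = 0.781). Cdkn1c, the CDK inhibitor p57, differed by -0.43 in male WSP (SE 0.17, limma, adjusted p = 0.7504), with EtOH values of 5.82, 5.68, 5.69 and 5.76 below air values of 5.97, 6.60, 6.17 and 5.92. On EtOH arrays 1-2, 2-1 and 2-2 Cdkn1c read lower than Mki67, which was not above background there, so these values lie near the floor. Unadjusted p values under 0.05 were also found for Orc4 (-0.21) and the cohesin subunit Smc3 (-0.18) in male WSR. Pole2, a DNA polymerase epsilon subunit, was 0.14 lower in WSP than in WSR in air. The checkpoint gene Mad2l1 was 0.11 higher in females than in males. Ccnd3, cyclin D3, had an ethanol difference 0.38 larger in females than in males. Orc3 also had an ethanol difference of -0.27 in females minus males. In WSP minus WSR under EtOH, Orc3 differed by -0.19, and 0 of 10 member spots had an unadjusted p under 0.05 against 4.92% of all.

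Few of the 20 marker spots had an unadjusted p under 0.05 in the same strata. In female WSP these were 1 of 2 neuronal, 1 of 3 oligodendrocyte and myelin, and 1 of 4 blood and choroid plexus spots. Of all clone spots 11.5% had such a p there. In male WSP 1 of 4 blood and choroid plexus spots did, against 6.15% of all, and 3 of them were lower and 1 higher in EtOH. No spot of the other marker lists did. The neuronal Thy1 differed by 0.30 in female WSP (limma, adjusted p = 0.296), and the mean over the 2 neuronal spots ran from 5.99 to 6.13 in air and from 6.20 to 6.33 in EtOH. In male WSP, Ttr, the choroid plexus transthyretin, differed by -0.32 (limma, adjusted p = 0.7504), and the mean over the 4 blood and choroid plexus spots ran from 8.03 to 8.13 in air and from 7.87 to 8.16 in EtOH. Their part in the member differences was not tested.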

How the data were processed

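RNA of the prefrontal cortex from 64 mice was measured on 32 one-colour cDNA arrays with 33P-labelled probe, per the labels' protocols. Per the file headers, the deposited files hold a spot intensity (Signal) and 1 background intensity per array. The authors' value table holds log2 values as deposited, which follow Signal and are blank below background, with unstated centring, and it served as an alternative. No imager, software or array maker is named, since they were not given in the sources used here.

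Background was removed with normexp (offset 50), and signals were quantile normalised over 4696 clone spots and put on the log2 scale, without the 192 control spots of genomic DNA and 467 that name no clone. The share of clone spots above background ran from 51.1% to 88.7% per array, and the number of arrays limits precision. limma 3.58.1 in R 4.3.3 fitted 8 group means to all 32 arrays (eBayes with trend, 24 residual degrees of freedom); tests were 2-sided and adjusted by Benjamini and Hochberg's method over the 4696 spots. The 10 comparisons were ethanol against air in each stratum and on average, line in air and in EtOH, ethanol by line, ethanol by sex, and sex. Members are named in every group, with full statistics where the unadjusted p was under 0.05; differences whose groups did not overlap, the values for Wee1, Ccnd1 and Mki67 in a stratum and the most extreme arrays were chosen after their values were seen. For members above background on at least 16 arrays, the gene-titled spot with the highest Pearson r is named. Members and lists were chosen with earlier results of these data known. Titles were matched to symbols by hand. The result for 1 cell type marker is not reported here. The spots of the array were compared by position in the grid.

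Within a line, equal selection replicate numbers mark 1 population, per the labels. Between the air and EtOH arrays that share a number, deviations from the group mean had a correlation of -0.08 (female WSP), 0.21 (female WSR), -0.02 (male WSP) and -0.0027 (male WSR). Promoter sequences are from RefSeq (GRCm38.p6), and figures come from matplotlib 3.10.9 under Python 3.11.15. The fit was tested on simulated data. Alternatives were median scaling, cyclic loess, no background correction, an offset of 16, the authors' table, a filter on dim spots, local centring, eBayes without trend, the compared groups alone, the population as a replicate block, each selection replicate alone, array sets as a random block, and each array left out.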

Additional observations from a re-analysis of the deposited data

Results flagged for a closer look

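Within 80 groups of 4 arrays, formed by 10 member spots and 8 groups, 7 held an array whose gap to the nearest other, divided by the group's range, exceeded Dixon's 95% critical value. Chance gives about 1 in 20 such groups. Values here are normalised log2 intensities. Female WSP air held the 2 largest of them: Mki67 at 7.70 on array 1-2 and Pcna at 7.47 on array 2-2. The other high values were smaller, namely Ccng2 at 6.39 and Mcm4 at 6.02 on male WSR air array 2-1, and Mki67 at 5.93 on male WSR air array 2-2. The low values were Ccnd1 at 5.68 on male WSP EtOH array 2-1 and Timeless at 5.73 on male WSP air array 1-2. Timeless at 5.73 and Ccnd1 at 5.68 were not above background, and Pcna and Mki67 in female WSP are given with and without their array in the report.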

How the results depend on the processing

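Counts of member spots called stayed at 0 in the 10 comparisons under 13 other settings and with each array left out, except in female WSP, where median scaling and cyclic loess each called 1, Mcm4. Over all clone spots, the female WSP count of 0 became 17 with median scaling and 31 with cyclic loess, and ran from 0 to 18 with 1 array left out. It was 17 in selection replicate 1 alone, 31 in selection replicate 2 alone, and 1 with no background correction, with an offset of 16, with the filter on dim spots, without the eBayes trend and with array sets as a block. The sex count of 42 became 5 with median scaling, 66 with local centring, 322 with the authors' table, 0 in selection replicate 1 alone and 8 in selection replicate 2 alone, and ran from 27 to 59 with 1 array left out. For line in air the count of 0 became 3 with cyclic loess, 2 without the eBayes trend and in selection replicate 1 alone, and 4 with array sets as a block and with the compared groups alone. Single spots were called in female WSR (selection replicate 2 alone), male WSP (either alone) and the average (selection replicate 1 alone). The cause of these moves was not tested. The authors' table, which called 74 spots for line in air, gave no value for dim members. Of 17 named member differences, 1 turned direction: Mki67 in female WSP was 0.051 in selection replicate 2 alone. Without Female WSP Air replicate 2-2 Pcna was -0.06, and without replicate 1-2 Mki67 was -0.0020. With the population as a replicate block Mcm4 in female WSP stayed at -0.38 (limma, adjusted p = 0.0974), and no member was called. In that fit the line comparisons in air and in EtOH are taken at selection replicate 1 of each line. The block therefore cannot check those comparisons. Array sets, 9 sets of 24 arrays with similar genomic DNA spots, taken as a random block gave -0.36 (limma, adjusted p = 0.261). In female WSP no set held arrays of both treatments, and female WSP arrays shared no set with any other group. There the block cannot separate sets from ethanol, nor from differences between female WSP and the other groups. That limit also covers the part of female WSP in the line, sex and interaction comparisons. The floor of 5.65 limits dim members: without background correction the Mcm4 difference was -0.90, and with an offset of 16 it was -0.80. Under other settings the adjusted p of Mcm4 ran from 0.0312 to 0.708.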

Other observations

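Outside the members, 10 spots with titles of cell cycle genes or of sequence tags highly similar to them were picked by title after the files were read. None passed in the 10 comparisons (limma, smallest adjusted p = 0.282). An unadjusted p under 0.05 was found for 5 of their 100 differences, near the share of 5.89% over all clone spots. In female WSP 5 were lower and 5 higher in EtOH. The tag similar to mitotic kinesin-like protein-1 differed there by 0.55 (limma, adjusted p = 0.411) and that similar to DNA polymerase beta by 0.20 (adjusted p = 0.408). The tag similar to transcription factor E2F-4 differed by -0.52 (limma, adjusted p = 0.584). The tag similar to cyclin K, which had the smallest p, differed by -0.23 in females minus males (limma, adjusted p = 0.282).

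Cdkn1a, the CDK inhibitor p21, read 5.76, 5.78, 8.43 and 5.84 in female WSP air and 5.94, 5.84, 5.82 and 5.76 in female WSP EtOH, so 1 air array stood apart, as for Pcna and Mki67 on other arrays of that group. Mdm2, the ubiquitin ligase of p53, read 6.54, 6.10, 5.98 and 5.96 in female WSP air and 6.40, 6.80, 6.62 and 6.41 in EtOH (difference 0.41, limma, adjusted p = 0.513).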
